A study of Arabidopsis thaliana with 9 samples.

Results

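The 8 regulators of the root cap followed here were traced through the 9 libraries of the series, chosen by locus: the transcription factor genes FEZ (AT1G26870), SMB (AT1G79580), BRN1 (AT1G33280), BRN2 (AT4G10350), ARF10 (AT2G28350) and ARF16 (AT4G30080), the receptor kinase gene ACR4 (AT3G59420) and the peptide gene CLE40 (AT5G12990). They are 8 of the 33602 loci listed in each library. The material was polyadenylated RNA from root tips of Arabidopsis thaliana, cut 2 to 3 mm from the apex of seedlings grown for 5 days after germination. Each mutant, stop1 and almt1, was sequenced at 5 µM phosphate with 1 mM L-malate added, at 5 µM phosphate (low phosphate) and at 1 mM phosphate (high phosphate). Wild type, the Col-0 accession, was sequenced at 5 µM phosphate with no iron added and 100 µM of the iron chelator ferrozine (low iron), at low phosphate and at high phosphate. STOP1 encodes a zinc-finger protein on which transcription of ALMT1 depends, and ALMT1 is the root's malate efflux channel; the series title describes the mutants as insensitive to low phosphate. The labels name no mutant alleles, and every group was 1 library made from powdered tips.

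The root cap is the sheath of cells that covers the growing tip. Its centre is the columella, whose starch grains settle with gravity, and its flanks are the lateral root cap, whose outer cells die or are shed while stem cells beside the quiescent centre replace them. The NAC factor FEZ promotes the divisions that renew the cap, and SMB restrains them and drives cap cells to mature, together with its relatives BRN1 and BRN2. ARF10 and ARF16 are auxin response factors that limit columella stem cells and are cut by the microRNA miR160, and ACR4 with the peptide CLE40 restrains the columella stem cells from the receptor side.

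Gene counts came to between 20619740 and 37189056 per library. Wild type at low phosphate had 44.9% of its recorded reads aligned at more than 1 place, against 4.19% to 14.3% in the other 8 libraries. Reads that fell on several genes at once made up 2.55% to 2.65% of the low-iron and malate libraries, against 0.956% to 1.69% of the remaining 6, so in the iron and malate comparisons the library set and the treatment cannot be told apart. Transcripts of cap regulators were present in each library: SMB, BRN1 and BRN2 had at least 189 counts everywhere and FEZ at least 28. The 13 listed genes of cap maturation and cell death summed to between 447 and 863 CPM (counts brought to 1 library scale by the trimmed mean of M values). Whether their reads came from the cap alone was not tested. The tips also held older tissue, since 4 markers of endodermis, root hair and xylem summed to between 308 and 677 CPM. Separately, 4 markers of dividing cells summed to between 105 and 148 CPM. The 3 shoot markers summed to between 3.61 and 55.0 CPM, with RBCS3B at 0 to 2 counts. In bulk tips, fewer cap cells and less of a transcript per cap cell cannot be told apart.

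Per kilobase of exon, BRN1 had the highest level of the 8 genes, with 21.4 to 31.2 CPM per kilobase over the 9 libraries. ARF16 followed with 10.9 to 17.7 and ARF10 with 8.66 to 15.2 CPM per kilobase. BRN2 had 5.45 to 9.70 and SMB 4.53 to 11.5 CPM per kilobase. At the low end ACR4 had 0.986 to 2.14 and FEZ 0.655 to 2.27 CPM per kilobase. The BRN1 range lay apart from that of each other member, whereas the ranges of neighbours in this order overlapped from ARF16 to ARF10, from ARF10 to BRN2, from BRN2 to SMB and from ACR4 to FEZ. CLE40 had 2 counts in each malate library, 1 in the low-iron library and 0 in the other 6. A count of 0 allows up to 3 counts, which is 0.0905 to 0.147 CPM in the 6 libraries at 0, so at this depth no level of CLE40 was detectable above that floor and no fold change is given for it.

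**Figure D1:**
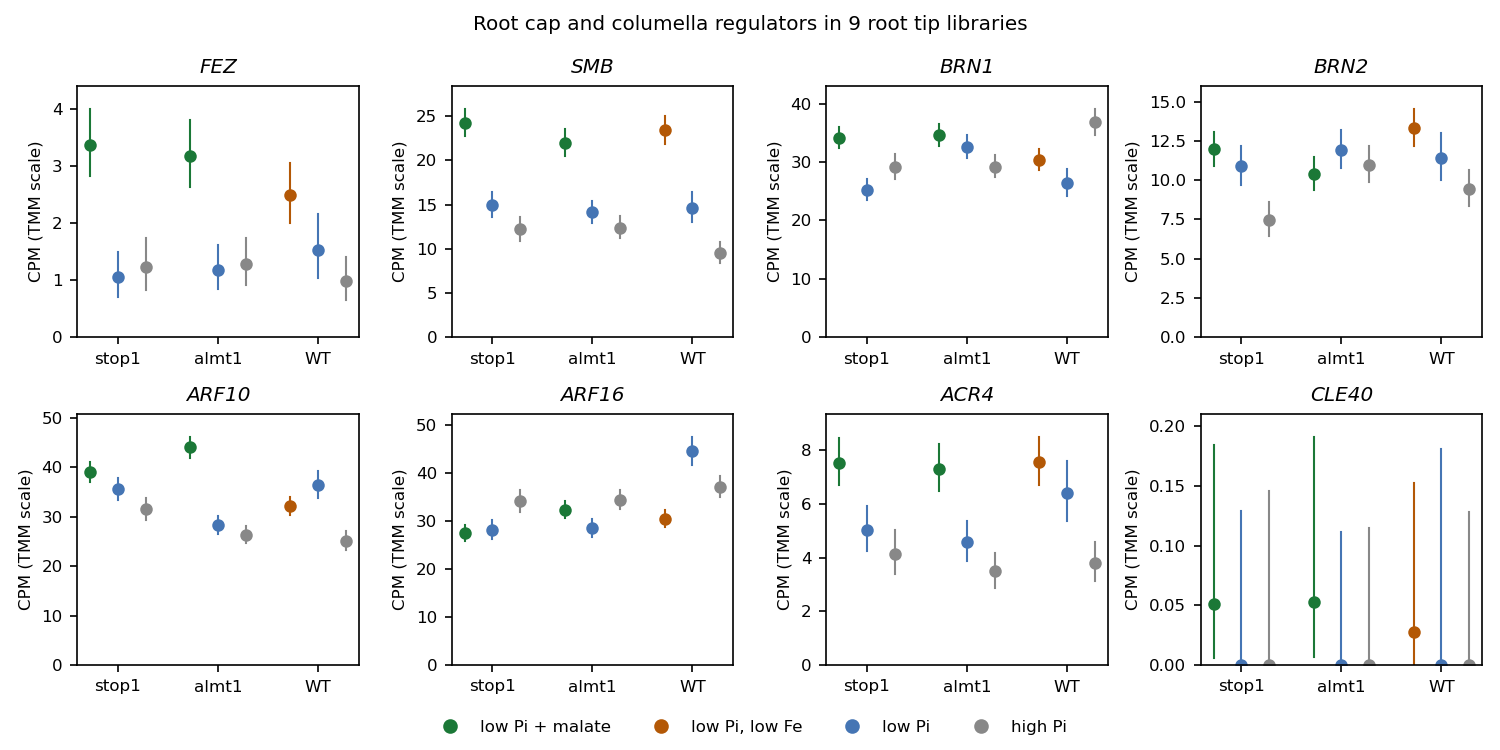
Level of each regulator in CPM (y axis, starting at 0) in the 9 libraries, grouped by genotype on the x axis and coloured by condition; bars are 95% Poisson intervals of the counts and cover counting error only. FEZ, SMB and ACR4 lay higher in the malate and low-iron libraries than in the other 6, whereas the ranges of BRN1, BRN2, ARF10 and ARF16 overlapped.

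The NAC genes were described first. FEZ (TAIR10.1 chromosome 1, 9312936 to 9315122, plus strand, 3 exons) had 3.37 CPM with malate, 1.05 CPM at low phosphate and 1.23 CPM at high phosphate in stop1. In almt1 it had 3.18, 1.18 and 1.28 CPM in the same conditions. Wild type had 2.49 CPM at low iron, 1.52 CPM at low phosphate and 0.98 CPM at high phosphate. The malate and low-iron libraries were thus the 3 highest for FEZ, and the other 6 lay between 0.976 and 1.52 CPM, on 28 to 41 counts each.

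SMB (chromosome 1, 29940803 to 29943713, minus strand, 4 exons in its first transcript) had 24.2 CPM with malate, 14.9 CPM at low phosphate and 12.2 CPM at high phosphate in stop1. It had 21.9, 14.1 and 12.4 CPM in almt1. Wild type had 23.4 CPM at low iron, 14.6 CPM at low phosphate and 9.52 CPM at high phosphate. The same 3 libraries stood above the other 6, and in every genotype high phosphate gave the lowest value.

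BRN1 and BRN2 are close relatives, with 82.3% identical bases over their aligned coding sequence and a longest shared run of 24 bases. BRN1 (chromosome 1, 12072611 to 12073965, plus strand) had 34.1 CPM with malate, 25.3 CPM at low phosphate and 29.1 CPM at high phosphate in stop1. In almt1 it had 34.6, 32.6 and 29.2 CPM, and in wild type 30.4 CPM at low iron, 26.4 CPM at low phosphate and 36.8 CPM at high phosphate. The highest BRN1 value was with malate in each mutant and at high phosphate in wild type. BRN2 (chromosome 4, 6415120 to 6416961, minus strand) had 12.0 CPM with malate, 10.9 CPM at low phosphate and 7.47 CPM at high phosphate in stop1. It had 10.4, 11.9 and 11.0 CPM in almt1, and in wild type 13.3 CPM at low iron, 11.4 CPM at low phosphate and 9.45 CPM at high phosphate. BRN2 at low phosphate exceeded BRN2 at high phosphate in each genotype, by a log2 ratio of 0.12 in almt1, where the 95% counting interval ran from -0.09 to 0.33.

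The stretch of highest likeness between the BRN1 and BRN2 promoters, within the 250 bases before each annotated start, is shown because the genes share it while their levels did not move together over the 9 libraries (Pearson's r = -0.04, a description over libraries that share genotypes and conditions). In the RefSeq sequence of TAIR10.1 it is chr1:12072485-12072550 on the plus strand for BRN1, from 126 to 61 bases before the start. For BRN2 it is chr4:6417020-6417086 on the minus strand, from 125 to 59 bases before the start. Capitals mark the 60 of 66 aligned bases that were identical, and 1 gap separates the parts.
BRN1: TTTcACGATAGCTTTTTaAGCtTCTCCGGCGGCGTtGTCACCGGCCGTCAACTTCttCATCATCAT
BRN2: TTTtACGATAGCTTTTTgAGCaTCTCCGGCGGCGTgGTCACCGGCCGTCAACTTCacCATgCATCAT

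The 2 auxin response factor genes carry a site for miR160 in a coding exon, as does their relative ARF17. The mature miR160 sequence is the same from all 3 precursor genes, and it is shown with its seed, bases 2 to 8, in capitals. Below it stand the sites in ARF10 (chr2:12115741-12115761, plus strand, exon 2 of 4), ARF16 (chr4:14704141-14704161, minus strand, exon 3 of 4) and ARF17 (chr1:29274189-29274209, plus strand, exon 2 of 3), with the bases opposite the seed in capitals. All sequences are from RefSeq annotation and TAIR10.1.
miR160 (a-5p, b, c-5p): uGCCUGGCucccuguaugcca
ARF10 site: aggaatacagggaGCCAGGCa
ARF16 site: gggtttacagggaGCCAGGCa
ARF17 site: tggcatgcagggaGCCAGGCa
Counting only Watson-Crick pairs, the sites had 2, 3 and 1 mismatches to the microRNA in ARF10, ARF16 and ARF17, and 0 opposite the seed in each. The libraries count polyadenylated transcripts and not mature microRNAs. The 3 precursor loci had 0 to 1, 2 to 15 and 4 to 16 counts for MIR160A, MIR160B and MIR160C over the 9 libraries, too few to describe a change.

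ARF10 had 39.0 CPM with malate, 35.6 CPM at low phosphate and 31.6 CPM at high phosphate in stop1. In almt1 it had 44.1, 28.3 and 26.4 CPM, and in wild type 32.1 CPM at low iron, 36.5 CPM at low phosphate and 25.1 CPM at high phosphate. High phosphate was the lowest condition for ARF10 in each genotype. ARF16 had 27.4 CPM with malate, 28.1 CPM at low phosphate and 34.1 CPM at high phosphate in stop1. It had 32.3, 28.4 and 34.3 CPM in almt1, and in wild type 30.4 CPM at low iron, 44.5 CPM at low phosphate and 37.1 CPM at high phosphate. The low-phosphate level of ARF16 lay below the high-phosphate level in stop1 and in almt1, and above it in wild type.

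In both mutants ARF10 was higher and ARF16 lower at low than at high phosphate. In wild type both rose at low phosphate and both fell with low iron, and in almt1 both rose with malate. Their balance was taken within each library, where scaling between libraries plays no part. This comparison was chosen after the values had been seen. ARF10 made up 58.7% of ARF10 and ARF16 counts with malate, 55.9% at low phosphate and 48.1% at high phosphate in stop1 (Wilson 95% intervals 56.8 to 60.6, 53.6 to 58.2 and 45.7 to 50.5). In almt1 the share was 57.7%, 49.9% and 43.4% (55.9 to 59.5, 47.6 to 52.1 and 41.2 to 45.6). In wild type it was 51.4% at low iron, 45.0% at low phosphate and 40.4% at high phosphate (49.4 to 53.5, 42.7 to 47.4 and 38.1 to 42.7). In each genotype the share was lowest at high phosphate. It was highest with malate in the mutants and with low iron in wild type. At low and at high phosphate stop1 had the highest share and wild type the lowest. Intervals overlapped between malate and low phosphate in stop1 and between low and high phosphate in wild type. Those of almt1 and wild type at high phosphate overlapped too. The intervals cover counting error only, and with 1 library a group there was no replicate check.

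The share of SMB among SMB and BRN1 counts was 41.5% with malate, 37.1% at low phosphate and 29.5% at high phosphate in stop1. It was 38.8%, 30.2% and 29.7% in almt1, and in wild type 43.5% at low iron, 35.6% at low phosphate and 20.5% at high phosphate. High phosphate again had the lowest share in each genotype, although in almt1 the intervals at low phosphate (28.0 to 32.5) and at high phosphate (27.4 to 32.3) overlapped. FEZ made up 12.2% of FEZ and SMB counts with malate and 6.56% at low phosphate in stop1 (10.4 to 14.3 and 4.64 to 9.22), and 12.7% and 7.69% in almt1 (10.7 to 14.9 and 5.68 to 10.3). At low phosphate, then, FEZ stood higher relative to SMB with malate than without it, and in both mutants these intervals lay apart, narrowly in almt1. The intervals cover counting error only, and no such comparison was made over all genes. Neither SMB with BRN1 nor FEZ with SMB was among the planned comparisons. At high phosphate the FEZ share was 9.14% in stop1 (6.52 to 12.7) and 9.34% in almt1 (6.96 to 12.4), and these intervals overlapped those with malate. In wild type the FEZ share was 9.61% at low iron, 9.42% at low phosphate and 9.30% at high phosphate.

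**Figure D2:**
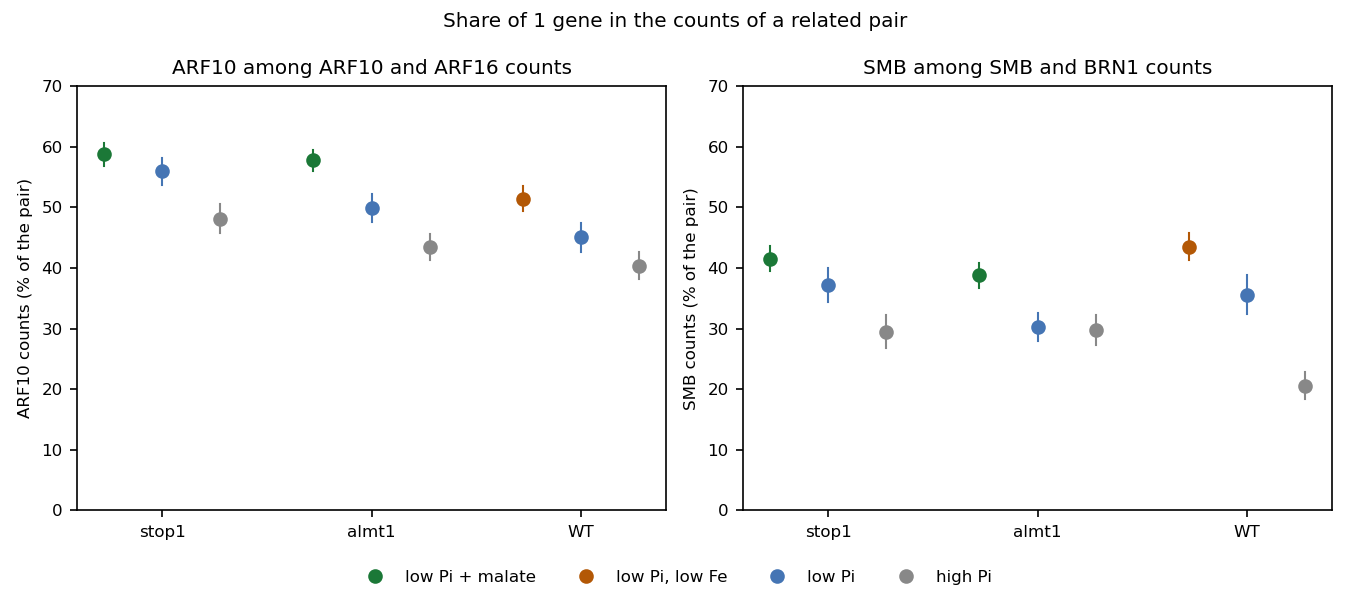
ARF10 counts as a percentage of ARF10 and ARF16 counts (left) and SMB counts as a percentage of SMB and BRN1 counts (right), by genotype on the x axis and condition by colour, with Wilson 95% intervals that cover counting error only. In each genotype the high-phosphate share was the lowest, from 40.4% to 48.1% for ARF10 and from 20.5% to 29.7% for SMB.

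ACR4 (chromosome 3, 21959646 to 21963180, minus strand, 1 exon) had 7.54 CPM with malate, 5.03 CPM at low phosphate and 4.15 CPM at high phosphate in stop1. In almt1 it had 7.31, 4.58 and 3.48 CPM, and in wild type 7.57 CPM at low iron, 6.42 CPM at low phosphate and 3.80 CPM at high phosphate. Like FEZ and SMB, ACR4 was highest in the malate and low-iron libraries, and like SMB it was lowest at high phosphate in each genotype. How many of all tested genes were lowest at high phosphate in each genotype was not counted.

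FEZ, SMB and ACR4 thus shared their 3 highest libraries, those with malate or low iron. Over all 21229 genes that passed the filter, 20.3% had their malate and low-iron libraries above the other 6 without overlap, beside these 3 of 7 tested members. Pearson's r of log2 CPM over the 9 libraries was 0.92 between FEZ and SMB, 0.91 between SMB and ACR4 and 0.86 between FEZ and ACR4. Such likeness was common: of 15257 loci with a mean of at least 5 CPM, 14.7% reached r = 0.9 or more with SMB, 7.91% with FEZ and 5.78% with ACR4, as against 51, 22, 3 and 2 loci for ARF10, ARF16, BRN2 and BRN1. The loci most like FEZ were OFP14, PRP40C and AT3G58220 (r = 0.99 each), and those most like SMB were AT1G77600, AT1G26170 and TWN2 (r = 1.00 each after rounding). EDA9, QWRF8 and AT5G02850 were most like ACR4 (r = 0.98 to 0.99). For ARF10 they were NHX2, AT5G41180 and QS (0.96 to 0.98), and for ARF16 FRB1, AT5G14880 and SSP4 (0.96 each). For BRN1 they were PRXQ, SSL2 and AT5G15390 (0.89 to 0.93), and for BRN2 AT1G61770, AT5G45275 and RPN12a (0.90 to 0.92). All these r describe 9 libraries that share genotypes, conditions and library sets.

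The promoters of FEZ, SMB and ACR4 are shown because the 3 genes shared their 3 highest libraries. Each is the 250 bases before the annotated start in TAIR10.1, from RefSeq. They were searched on both strands for TGTCTC, the core of an auxin response element, and for GNATATNC, a phosphate starvation motif, and no match of one overlapped a match of the other in the members. Capitals mark the motif found. The FEZ promoter is chr1:9312686-9312935 (plus strand), that of SMB is chr1:29943714-29943963 (minus strand) and that of ACR4 is chr3:21963181-21963430 (minus strand).
FEZ: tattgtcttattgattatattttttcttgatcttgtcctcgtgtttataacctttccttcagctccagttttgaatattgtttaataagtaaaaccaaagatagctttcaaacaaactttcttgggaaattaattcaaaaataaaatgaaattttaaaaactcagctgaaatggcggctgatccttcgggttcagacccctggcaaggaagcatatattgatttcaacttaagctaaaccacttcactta
SMB: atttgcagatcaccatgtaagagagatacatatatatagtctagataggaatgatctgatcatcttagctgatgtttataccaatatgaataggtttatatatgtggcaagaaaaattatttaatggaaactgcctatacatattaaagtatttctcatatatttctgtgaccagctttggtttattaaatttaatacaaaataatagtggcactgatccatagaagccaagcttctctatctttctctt
ACR4: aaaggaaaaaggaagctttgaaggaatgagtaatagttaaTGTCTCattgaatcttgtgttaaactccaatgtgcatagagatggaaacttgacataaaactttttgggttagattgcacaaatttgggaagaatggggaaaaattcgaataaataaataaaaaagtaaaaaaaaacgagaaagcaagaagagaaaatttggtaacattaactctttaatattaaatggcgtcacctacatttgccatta
TGTCTC was found once in ACR4 and, on the other strand, at 2 places in BRN2, so in 2 of the 8 members, beside 10.9% of 27443 promoters of this length. GNATATNC was found in 0 of the 8 and in 5.46% of all promoters.

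Malate was the treatment with the most called members. In the mutants, malate at low phosphate against low phosphate alone raised FEZ, SMB and ACR4, and lowered none of the 7 members that passed the filter on low counts. The 3 that rose stood beside 17.2% of all tested genes called higher and 36.6% called in either direction. FEZ rose by 1.55 on the log2 scale (SE 0.24, edgeR quasi-likelihood adjusted p = 0.00855), higher in 2 of 2 mutants. SMB rose by 0.67 (SE 0.12, edgeR adjusted p = 0.0115) and ACR4 by 0.63 (SE 0.16, edgeR adjusted p = 0.0294), each higher in 2 of 2 mutants. For ARF10 the fitted change was 0.39 (SE 0.15, edgeR adjusted p = 0.0866), with 0.64 in almt1 and 0.13 in stop1 as single pairs of libraries. BRN1, ARF16 and BRN2 had 0.26, 0.08 and -0.02. In single-library pairs, FEZ with malate was the only member value at least 2-fold apart beyond counting error, by a log2 ratio of 1.69 in stop1 (95% counting interval 1.11 to 2.31) and 1.43 in almt1 (0.90 to 1.99), beside 6.09% and 4.3% of all tested genes that were higher by this rule. Over 10 such pairs of libraries these were the 2 member values past this rule, beside 12.1% of the values of all tested genes. Without stop1 at low phosphate or without almt1 at low phosphate no member call held, and most other called genes lost their call too. The fitted changes were then 1.46 and 1.65 for FEZ, 0.68 and 0.66 for SMB, and 0.63 and 0.63 for ACR4. Without either mutant's high-phosphate library FEZ and SMB held, and ACR4 kept 0.63 but did not pass. Fewer of all tested genes passed there than with all libraries. ARF10 passed as well without the stop1 malate library (edgeR adjusted p = 0.00350) or without the low-iron library (0.0496). DESeq2 called FEZ and SMB and gave ACR4 an adjusted p = 0.116.

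Low iron at low phosphate, against low phosphate alone in wild type, raised SMB and lowered ARF16. SMB rose by 0.68 on the log2 scale (SE 0.17, edgeR adjusted p = 0.0299), beside 12.5% of all tested genes called higher and 30.6% in either direction. ARF16 fell by 0.55 on the log2 scale (SE 0.16, edgeR adjusted p = 0.0475), beside 18.1% called lower. FEZ had 0.71 with a larger error (SE 0.34, edgeR adjusted p = 0.163), and ACR4, BRN2, BRN1 and ARF10 had 0.24, 0.22, 0.20 and -0.18. Both calls rest on the wild-type low-phosphate library as the baseline, the one with 44.9% multiply aligned reads. Neither call held in DESeq2 (adjusted p = 0.105 for SMB and 0.124 for ARF16), nor without any 1 of the 4 mutant libraries at low or high phosphate.

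Low phosphate against high phosphate was compared across genotypes, within the mutants and within wild type. Over the 3 genotypes edgeR called 0 of the 7 members, against 3.71% of all tested genes in either direction; 1 member had an unadjusted p under 0.05, ACR4 with a log2 fold change of 0.46, and DESeq2 called 0. SMB, BRN2, ARF10, FEZ, ARF16 and BRN1 had 0.35, 0.30, 0.25, 0.08, -0.11 and -0.19. In the mutants edgeR called 0 of 7 against 5.41% of all genes, with 0 at an unadjusted p under 0.05 and 0 in DESeq2, and the values ran from -0.28 for ARF16 to 0.34 for ACR4.

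In wild type, where 21.8% of all tested genes were called, edgeR called 0 of the 7 members, 4 had an unadjusted p under 0.05 and DESeq2 called 0. The log2 fold changes were, for ACR4, 0.76 (SE 0.24, edgeR adjusted p = 0.0708), SMB 0.62 (SE 0.18, edgeR adjusted p = 0.0525), ARF10 0.54 (SE 0.22, edgeR adjusted p = 0.122) and BRN1 -0.48 (SE 0.19, edgeR adjusted p = 0.116). FEZ, BRN2 and ARF16 had 0.64, 0.27 and 0.26. These same 4 passed when the fit left out the malate and low-iron libraries, with SMB, ACR4 and ARF10 higher and BRN1 lower, and also without either malate library; 41.0% of all genes passed in that fit of 6 libraries. The wild-type libraries are single, and the fit gave them the spread seen in the mutants.

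The question whether wild type and the mutants responded differently to low phosphate was tested by the difference of their responses. edgeR called 0 of 7 members, beside 1.25% of all genes, 1 member (ARF16) had an unadjusted p under 0.05 and DESeq2 called 0. The difference, wild type minus mutants, was 0.54 for ARF16 (SE 0.20, edgeR adjusted p = 0.183) and 0.81 for FEZ (SE 0.46, edgeR adjusted p = 0.341). BRN1 had -0.46, and ACR4, ARF10, SMB and BRN2 had 0.42, 0.40, 0.38 and -0.04. Without the stop1 or the almt1 malate library ARF16 passed at the same 0.54, in fits where many more of all tested genes passed too.

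Mutants were then set against wild type within a phosphate level. At low phosphate ARF16 was lower in the mutants, with a fitted log2 value of -0.66 (SE 0.14, edgeR adjusted p = 0.0439), lower in 2 of 2 mutants, beside 4.48% of all tested genes called lower and 6.6% in either direction. The pairs of libraries gave -0.66 for stop1 (95% counting interval -0.80 to -0.53) and -0.65 for almt1 (-0.78 to -0.52). The other members had values from -0.45 for FEZ to 0.13 for BRN1, and none passed. The ARF16 call was lost without any 1 of the 4 mutant libraries at low or high phosphate (edgeR adjusted p = 0.0708 to 0.149), with the fold change between -0.66 and -0.65, and DESeq2 called 1 member. The ARF16 value rests on the single wild-type low-phosphate library, the one with 44.9% multiply aligned reads, which is also the baseline of the low-iron comparison. At high phosphate edgeR called 0 members and 0% of all genes, 1 member (SMB, log2 fold change 0.37) and 893 of 21229 genes had an unadjusted p under 0.05, and DESeq2 called 0 of both. Between stop1 and almt1 over 3 conditions edgeR called 0 members against 0.198% of all genes, with 0 at an unadjusted p under 0.05 and 0 in DESeq2. Log2 fold changes of stop1 over almt1 lay between -0.15 for BRN2 and 0.14 for ARF10 and ACR4.

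**Figure D3:**
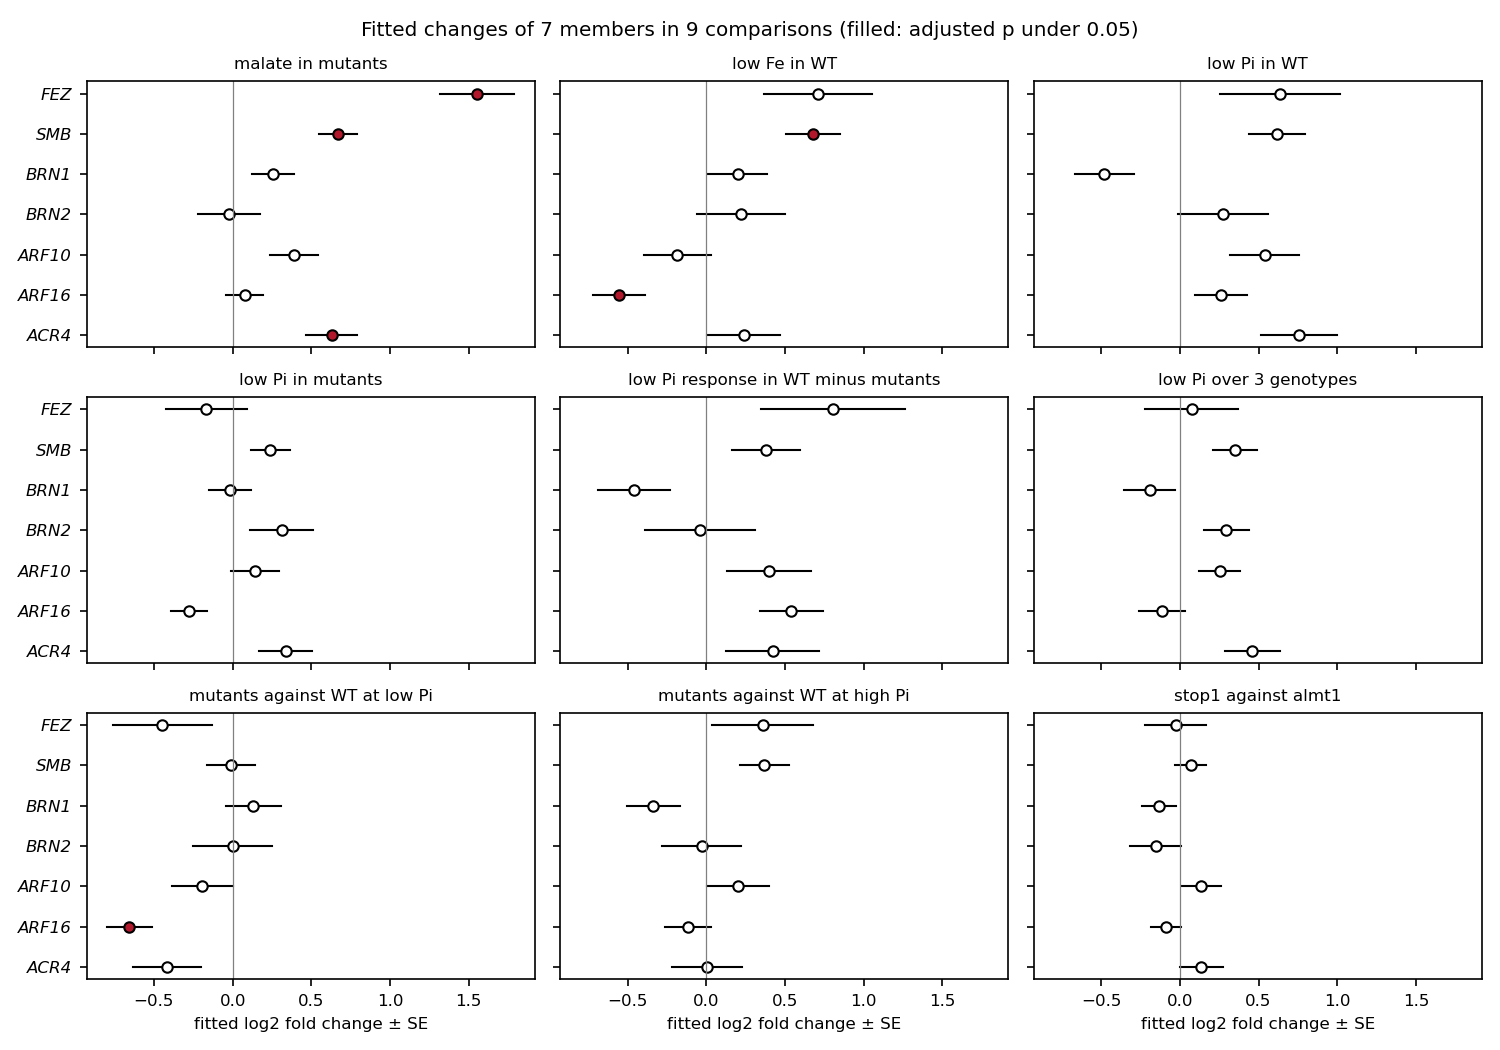
Fitted log2 fold change (x axis, bars are ± 1 SE) of the 7 tested members in 9 comparisons, with points filled where the edgeR adjusted p was under 0.05. Filled points appear for FEZ, SMB and ACR4 with malate, for SMB and ARF16 with low iron, and for ARF16 in the mutants at low phosphate.

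Genes that act with or downstream of these regulators were taken from lists by role. Of 13 genes of cap maturation and programmed cell death, malate in the mutants lowered 7, raised 2 and left 4 that did not pass, with a median log2 fold change of -1.09 beside -0.02 over all genes. Over all tested genes malate lowered 19.4% and raised 17.2%. BFN1, a nuclease that degrades nucleic acids in dying cells, had 6.11 CPM with malate and 37.3 CPM at low phosphate in stop1, and 10.4 and 27.0 CPM in almt1, a fitted log2 change of -1.92 (SE 0.39, edgeR adjusted p = 0.0208). AT4G18425, which encodes a DUF679 transmembrane protein, fell by 1.89 on the log2 scale, AT4G04460, which encodes a saposin-like aspartyl protease, fell by 1.77, and the serine carboxypeptidase-like gene SCPL48 fell by 1.303. CEL3 and CEL5, which encode cellulases, were the 2 that rose, by 1.19 and 0.75; they were named after their values had been seen. SMB and BFN1 thus moved in opposite directions with malate. Beside these values, the 4 markers of older root tissue summed to 308 CPM with malate and 616 CPM at low phosphate in stop1, and 436 and 525 CPM in almt1. The meristem markers summed to 132 and 124 CPM in stop1 and 128 and 137 CPM in almt1. These sums hide opposite changes. In the fit 2 of the 4 meristem markers had a positive change with malate, while 1 was called higher and 1 lower. As single pairs of libraries, KNOLLE had log2 ratios of 0.40 in stop1 and 0.44 in almt1, and AUR2 had -0.25 and -0.63. Of the 4 markers of older tissue, 1 was called lower with malate and 0 higher, and 1 had a positive fitted change. The xylem marker XCP1 had log2 ratios of -1.65 in stop1 and -0.88 in almt1, and the root hair marker COBL9 had -0.15 and 0.22. The part of older root tissue or of dividing cells in the result was not tested. No malate call among the 13 held without the low-phosphate library of stop1 or of almt1, where most called genes overall lost their call too. DESeq2 called 6 lower and 2 higher.

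With low iron in wild type, 2 of these 13 listed genes rose, 2 fell and 9 did not pass (median -0.14), beside 12.5% of all tested genes higher and 18.1% lower. IDL1, which encodes a small peptide of the IDA family, rose by 2.51 (SE 0.52) and CEL5 by 1.72 (SE 0.17), whereas BFN1 fell by 2.21 (SE 0.55) and the NAC gene ANAC046 fell by 1.12 (SE 0.27). BFN1 and ANAC046 were called lower in both comparisons, ANAC046 by 1.09 with malate (SE 0.19, edgeR adjusted p = 0.0113). CEL5 was called higher in both. IDL1 was called in opposite directions, since it fell by 1.26 with malate (SE 0.34, edgeR adjusted p = 0.0331). At low phosphate in wild type CEL3 and AT1G65570, which encodes a pectin lyase-like protein, rose by 1.12 and 0.59, and the other 11 did not pass, beside 12% of all tested genes higher and 9.79% lower. Among the 13, CEL5 alone was higher in the mutants than in wild type at low phosphate, by 0.87, beside 2.12% of all tested genes higher. With low iron fewer of the 13 were called lower without the low- or high-phosphate library of either mutant. More were called in both directions without either malate library. The 2 that rose at low phosphate in wild type were lost without any 1 of those same 4 mutant libraries. Without either malate library more rose there, and some were also called lower. The share of all tested genes called moved the same way in each of these fits. The fit of 6 libraries gave 4 higher and 5 lower at low phosphate in wild type, beside 41.0% of all tested genes in either direction. The CEL5 call in the mutants was lost without stop1 or almt1 at low phosphate.

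Of 12 measured genes of distal stem cell control, 4 rose with malate in the mutants and 8 did not pass (median 0.43, or 0.39 without MIR160B, which had 2 counts in its lowest library), beside 17.2% of all tested genes higher. The PLETHORA factor genes PLT3 and PLT2 rose by 0.99 and 0.92, their relative BBM by 0.74 and the retinoblastoma gene RBR1, which restrains columella stem cell division, by 0.48. With low iron in wild type 6 of the 12 fell and RBR1 alone rose, by 0.59 (median -0.88, or -0.92 without MIR160B), beside 18.1% of all tested genes lower and 12.5% higher. WOX5, the quiescent centre gene that keeps columella stem cells undifferentiated, had 0.437 CPM at low iron and 7.11 CPM at low phosphate, beside 1.78 CPM at high phosphate (log2 fold change of low iron over low phosphate -4.01, SE 0.57, edgeR adjusted p = 0.00648). PLT3 fell by 1.44, CRN, a partner in CLE peptide reception, fell by 1.23, and the receptor kinase gene CLV1, which acts with ACR4, fell by 1.22. ARF17, the third target of miR160 shown above, had 7.84 CPM at low iron, 14.9 CPM at low phosphate and 7.84 CPM at high phosphate in wild type. It was called lower with low iron, by 0.92, and higher at low phosphate in wild type, by 0.92. In all, 5 of the 12 rose at low phosphate in wild type (median 0.81, or 0.84 without MIR160B), beside 12% of all tested genes higher. PLT3 alone differed in response between wild type and mutants, by 1.72, beside 0.688% of all tested genes called in this direction. At low phosphate the mutants were lower than wild type for WOX5, PLT3 and BBM, by -2.67, -1.47 and -1.14, and 9 did not pass, beside 4.48% of all tested genes lower. The low-iron, low-phosphate and mutant comparisons share the wild-type low-phosphate library, the one with 44.9% multiply aligned reads. In wild type the meristem markers summed to 132 CPM at low iron, 105 CPM at low phosphate and 148 CPM at high phosphate, and the markers of older root tissue to 661, 401 and 611 CPM in the same conditions. Their part in the result was not tested. Without any 1 of the 4 mutant libraries at low or high phosphate, fewer of the 4 that rose with malate passed. Fewer of the 5 that rose at low phosphate in wild type passed there too, and the RBR1 call with low iron and the PLT3 difference were lost. Fewer of the 6 that fell with low iron passed without the high-phosphate library of either mutant. Without either malate library more of the 12 rose at low phosphate in wild type and more differed in response. Fewer genes were lower in the mutants without stop1 or almt1 at low phosphate, and more without the low-iron library. The share of all tested genes called moved the same way in each of these fits. DESeq2 called 2 higher at low phosphate in wild type, beside 17.0% of all tested genes in either direction. In the fit of 6 libraries 4 of the 12 differed in response, beside 18.0% of all tested genes.

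**Figure D4:**
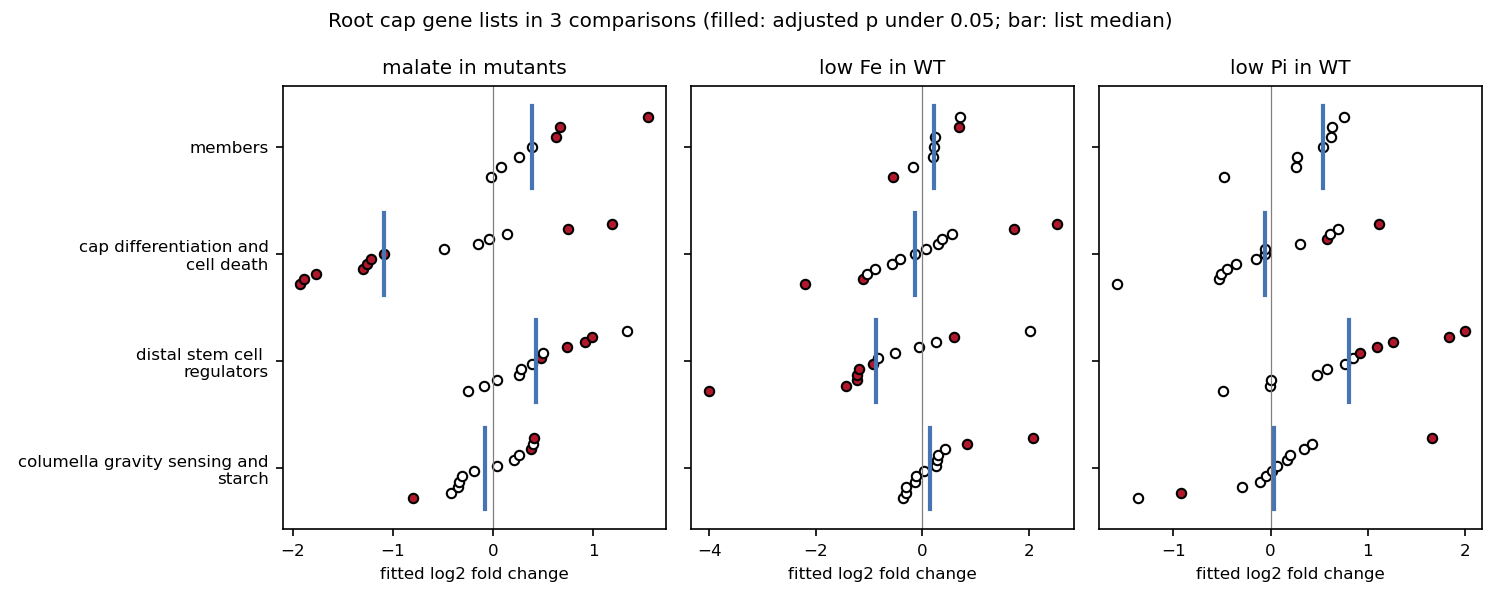
Fitted log2 fold change (x axis) of the 7 tested members and of 3 lists of genes that act with them, under malate in the mutants, low iron in wild type and low phosphate in wild type. Each point is 1 gene, filled where the edgeR adjusted p was under 0.05, and the bar is the list median, which is -1.09 for cap maturation and cell death under malate.

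Of 12 genes of columella gravity sensing and starch, malate raised 2, AUX1 (0.41) and ADG1 (0.38), and lowered AT1G19115 (by a log2 fold change of -0.80), with a median of -0.08, beside 36.6% of all tested genes called (17.2% higher and 19.4% lower). AUX1 encodes an auxin influx carrier of the columella and lateral cap, and ADG1 the small subunit of the enzyme that starts starch synthesis. Low iron raised the auxin efflux carrier gene PIN4 by 2.07 and AUX1 by 0.83 (median 0.14), beside 12.5% of all tested genes higher. APL1, a large subunit of the same starch enzyme, had 8.98 CPM at low phosphate and 3.40 CPM at high phosphate in stop1, and 9.53 and 4.42 CPM in almt1. In wild type it had 13.5 and 4.25 CPM, so it was higher at low phosphate in each genotype, by 1.37 in the fit (SE 0.17, edgeR adjusted p = 0.0296). It was the 1 of 12 called over the 3 genotypes, and the 1 of 12 called in the mutants (1.26), beside 1.81% and 2.3% of all tested genes higher. In wild type APL1 rose by 1.66 and PIN4 fell by 0.92, beside 12% of all tested genes higher and 9.79% lower. PIN4 was higher by 1.06 in the mutants at low phosphate than in wild type, beside 2.12% of all tested genes higher. The APL1 call over the 3 genotypes was lost without the stop1 pair of libraries. In that fit 0.00496% of all tested genes were called in either direction, against 3.71% as reported. In the mutants the APL1 call was lost without any 1 of their low- or high-phosphate libraries, where most called genes lost their call too. Without the wild-type pair 3 of the 12 were called higher over the genotypes, beside 22.9% of all tested genes in either direction. In the mutants 4 were called higher without either malate library and 3 in the fit of 6 libraries. These stood beside 22.1% to 25.0% of all tested genes in either direction, against 5.41% as reported. In wild type 2 rose and 2 fell without either malate library and in that fit. There 41.0% to 43.0% of all tested genes were called in either direction, against 21.8% as reported. In wild type both calls were lost without the high-phosphate library of either mutant, and the PIN4 call in the mutants was lost without the low-phosphate library of either. The malate calls were lost without any 1 of the low- or high-phosphate libraries of the mutants. Leaving out such a library lowered the share of all tested genes called in each of these comparisons and for low iron. Without the stop1 malate library 1 was called higher and 2 lower with malate, without the almt1 malate library 3 higher and 4 lower, and DESeq2 called 1 higher and 0 lower. The 2 with low iron fell to 1 without the high-phosphate library of either.

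ACR4 has 4 related receptor kinase genes on the lists. CCR1 rose by 0.61 with malate and CCR3 fell by 0.61, close to the threshold (edgeR adjusted p = 0.0398 and 0.0480), while CCR2 and CCR4 did not pass. These calls stood beside 17.2% of all tested genes higher and 19.4% lower. DESeq2 called neither, and both were lost without any 1 of the low- or high-phosphate libraries of the mutants and without the stop1 malate library. CCR2 had 38.5 CPM at low iron, 14.0 CPM at low phosphate and 22.4 CPM at high phosphate in wild type. It rose with low iron by 1.46 (SE 0.16, edgeR adjusted p = 0.00359), beside 12.5% of all tested genes higher. At low phosphate in wild type it fell by 0.68, beside 9.79% lower. It was higher in the mutants than in wild type at low phosphate, by 0.92, beside 2.12% higher. That call was lost without stop1 or almt1 at low phosphate. The fall of CCR2 at low phosphate was lost without any 1 of the 4 mutant libraries at low or high phosphate and in DESeq2. CCR4 had 0 to 14 counts per library, too few for a fold change.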

How the data were processed

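The 9 deposited files hold raw counts per locus, 1 file per group; per the submitters' processing notes they come from TopHat2 and HTSeq (versions not given in the sources used here) on TAIR10, and per the labels' protocols the libraries do not keep strand. For stop1 with malate the sample title marks high phosphate, but the characteristics give low phosphate plus malate and were followed. The 5 summary lines for unassigned reads, 6.95% to 50.1% of recorded reads, stayed out of library sizes. The 8 members and all lists were chosen with earlier results of these data known.

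Counts were tested in R 4.3.3 with edgeR 4.0.16 quasi-likelihood tests (limma 3.58.1; TMM; robust; filterByExpr minimum count 10, minimum total 15; Benjamini-Hochberg threshold 0.05 over all genes). The test of low phosphate across the 3 genotypes took 6 libraries, blocked by genotype (20340 genes, 2 residual degrees of freedom). For the others all 9 libraries entered (21229 genes), with a term for stop1 against almt1 (2 residual degrees of freedom) or, for mutants against wild type, without it (3). Since groups hold 1 library, stop1 and almt1 serve as replicates of 1 mutant class, and p-values measure only the spread between these samples. SE is the log2 fold change divided by the square root of F. Pairs of single libraries got a log2 ratio with an exact conditional binomial 95% interval, counted at 2-fold or more, with no p-value. Likeness used log2(CPM + 0.1). Up to 4 called genes per list and comparison, those with the largest change, were named, and the 3 loci most like each member. All 61 listed loci and 32835 of 33602 loci matched the RefSeq annotation of TAIR10.1, read with Biopython 1.88. DESeq2 1.42.0, other size factors, no filter, a non-robust fit and leaving out libraries were tried. The scripts were tested on simulated data.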

Additional observations from a re-analysis of the deposited data

How the results depend on the processing

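The number of members called stayed within 1.5 times its reported value except as follows. Without 1 library, malate in the mutants gave 0 to 4 called members against 3 as reported, low iron 0 to 2 against 2, mutants against wild type at low phosphate 0 to 1 against 1, low phosphate in wild type 0 to 4 against 0, and the difference in response 0 to 1 against 0. For low iron, DESeq2 gave 0 and no filter on low counts gave 1. The fit of 6 libraries gave 4 for low phosphate in wild type. Among single-library pairs, 2 member values lay past 2-fold, 12 past 1.5-fold and 1 past 3-fold. Of 756 fitted member values under alternatives, 16 passed that did not pass as reported, 24 no longer passed, 29 uncalled values changed sign (none over 0.24 in size) and 0 called values did; of 140 pair ratios, 6 left their counting interval. In the comparisons over 9 libraries, leaving out a mutant low- or high-phosphate library lowered the share of all tested genes called, wherever any were called. Leaving out a malate library raised that share for low phosphate in wild type and in the mutants, for low iron and for the difference in response. It also raised the share for stop1 against almt1 and for mutants against wild type at low phosphate. For malate in the mutants the share rose without the almt1 malate library and fell without the stop1 malate library. The cause of these changes was not tested, beyond the fewer samples of a fit that leaves out a library. Pairing by replicate number was not possible because the labels number no replicates. Genotype paired the low- and high-phosphate libraries as a block in the test over 3 genotypes. In the fit of 9 libraries that carried it, the term for stop1 against almt1 paired the mutant libraries by genotype. Depth limits FEZ, with as few as 28 counts, and CLE40, with at most 2.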
